A study of Mus musculus with 9 samples.

Results

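The expression of 10 cytokine receptor genes, found by symbol in the gene counts, was followed in mouse CD8 T cells: Il7r, Il2ra, Il2rb, Il2rg, Il4ra, Il6st, Il6ra, Il21r, Ifnar1 and Ifnar2. All 10 were present among the 55011 genes of the table, and all 10 were among the 10235 genes with enough counts to test. The cells were naive CD8 T cells from the spleen of wild-type mice, all of them stimulated for 6 h on plate-bound antibodies to CD3 and CD28. Of the 9 libraries, 3 came from cells without a compound (control), 3 from cells given 20 mM D-2HG and 3 from cells given 20 mM L-2HG, each compound present from the start of the stimulation. Both are 2-hydroxyglutarate, a metabolite close to 2-oxoglutarate, and differ as mirror images of one another. D-2HG is the form made by mutant isocitrate dehydrogenases in tumours. The study concerned D-2HG and the metabolism and function of these cells. No unstimulated cells are among the libraries analysed here, so that the change of each gene on stimulation itself cannot be given, and it is not given in the sources used here if replicates were separate mice or cultures. The p-values therefore measure the spread between these libraries, which may be technical.

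Cytokine receptors are assembled from chains that several cytokines share. Il7r encodes the alpha chain of the interleukin-7 receptor, which keeps naive T cells alive and is lost from the surface after activation. Il2ra encodes CD25, the alpha chain that activated T cells make to bind interleukin-2 tightly, and Il2rb encodes the beta chain that serves both interleukin-2 and interleukin-15. Il2rg encodes the common gamma chain, which pairs with the products of Il7r, Il2rb, Il4ra and Il21r. Il6st encodes gp130, the signalling chain that interleukin-6 and its relatives share, and Il6ra encodes the chain that binds interleukin-6 itself. Ifnar1 and Ifnar2 encode both chains of the receptor for type I interferons. These chains have no kinase activity of their own and signal through Janus kinases (JAKs), which phosphorylate STAT transcription factors.

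In the edgeR fit reported, the 3 members Il7r, Il4ra and Il6st rose with both compounds, and Il2ra passed with neither. Promoter sequences are shown for these members. Each runs 5′ to 3′ from 250 bases before to 50 bases after the RefSeq start of the gene (build GRCm38.p6). All members but Il2rb had an entry of this length, so that the motif results below leave Il2rb out. Capitals mark TTCNNNGAA, the site that STAT proteins bind, and GGAAA, the core bound by NFAT factors, on either strand.
Il7r, chr15:9529827-9530126, minus strand: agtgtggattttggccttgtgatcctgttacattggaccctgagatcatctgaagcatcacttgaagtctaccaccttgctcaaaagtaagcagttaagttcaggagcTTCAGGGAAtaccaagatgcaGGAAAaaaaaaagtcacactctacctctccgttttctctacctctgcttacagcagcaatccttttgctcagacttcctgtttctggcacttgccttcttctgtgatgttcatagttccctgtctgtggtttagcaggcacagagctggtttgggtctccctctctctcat
Il4ra, chr7:125552021-125552320, plus strand: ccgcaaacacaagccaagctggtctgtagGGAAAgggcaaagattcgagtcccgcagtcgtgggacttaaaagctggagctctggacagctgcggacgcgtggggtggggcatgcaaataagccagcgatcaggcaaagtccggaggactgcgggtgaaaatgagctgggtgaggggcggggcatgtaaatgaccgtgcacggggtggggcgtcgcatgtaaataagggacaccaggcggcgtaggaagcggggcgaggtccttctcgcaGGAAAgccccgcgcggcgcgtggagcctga
Il6st, chr13:112463820-112464119, plus strand: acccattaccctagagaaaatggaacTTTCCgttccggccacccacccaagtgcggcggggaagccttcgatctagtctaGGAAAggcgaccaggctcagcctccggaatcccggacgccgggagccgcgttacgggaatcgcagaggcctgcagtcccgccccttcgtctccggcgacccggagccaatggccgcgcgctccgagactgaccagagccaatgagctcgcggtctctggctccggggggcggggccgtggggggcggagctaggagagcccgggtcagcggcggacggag
Il2ra, chr2:11642542-11642841, plus strand: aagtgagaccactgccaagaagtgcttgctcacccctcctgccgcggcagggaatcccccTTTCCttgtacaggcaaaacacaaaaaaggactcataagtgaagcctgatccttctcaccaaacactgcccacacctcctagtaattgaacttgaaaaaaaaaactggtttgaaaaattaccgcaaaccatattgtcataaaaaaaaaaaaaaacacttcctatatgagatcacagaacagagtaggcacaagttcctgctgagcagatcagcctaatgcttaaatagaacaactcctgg
The STAT motif lay in the promoters of Il7r, Ifnar1 and Ifnar2, against 8.30% of all 32851 promoters of the same length in the table. In Il7r it began 142 bases before the RefSeq start. In GENCODE M21, Il7r starts at 9530176 on the minus strand, so that its whole printed window lies inside the gene as annotated there. GGAAA, which occurs in 61.3% of promoters, lay in those of 6 members, Il7r, Il2ra, Il2rg, Il4ra, Il6st and Ifnar1. The forkhead motif TGTTTAC (3.65% of promoters) was found only in Il21r among the members with an entry. The interferon response motif, TTTC and TTTC with NN between (3.44%), was found in none of them. None of the matches in the printed sequences shares a base with another. Guanine and cytosine made up 45.7% of the Il7r promoter and 42.7% of that of Il2ra, against 62.0% for Il4ra and 68.3% for Il6st. A match describes letters in these windows and does not show that a factor binds there.

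Libraries held 562627 to 5731885 counts, with L-2HG replicate 2 the shallowest. Satellite repeat sequence counted under Gm10800 and Gm10801 took 0.910 to 5.35% of all counts in control libraries, 3.79 to 17.05% in D-2HG libraries and 6.71 to 24.4% in L-2HG libraries. Among the controls, replicate 2 had the highest share. Mitochondrial genes took 2.23 to 3.06% of counts in control libraries and 0.992 to 1.88% in the 6 libraries with a compound. Sensory receptor genes, which T cells do not use, summed to 212 to 848 CPM before TMM in control libraries, 778 to 1164 in D-2HG libraries and 1305 to 3355 in L-2HG libraries. The 9 genes that mark CD8 T cells were all present, with Cd8a at 701 to 1107 CPM in control, 728 to 847 with D-2HG and 628 to 848 with L-2HG, and with Cd4 at most 1.38 CPM in any library. Of these 9 markers, Cd8b1, Cd3e, Cd3g and Trac fell with D-2HG, where Themis rose, and Trac fell with L-2HG. CPM, the depth-scaled count, rests here on library totals after TMM scaling. The summed level of 7 memory-type CD8 T cell markers was 439 to 646 CPM in control, 289 to 324 with D-2HG and 268.5 to 385 with L-2HG. The natural killer cell receptor gene Klrd1 and Ly6c2 fell with both compounds and Cxcr3 with L-2HG. The level of 6 naive T cell markers summed to 1231 to 1642, 935 to 1092 and 1210 to 1498 CPM, and Dapl1 among them fell with D-2HG. B cell markers, mostly Ighm, which fell with both compounds, summed to 176 to 318, 136 to 137 and 138.5 to 200.3 CPM over 7 genes. The NK cell list stayed at or under 9.04 CPM over 5 genes in every group and the macrophage and monocyte list at or under 9.51 CPM over 5 genes, with Fcgr1 at 0. Neutrophil markers reached at most 1.90 CPM over 4 genes. The CD4 and regulatory T cell list was at 15.8 to 30.0 CPM over 5 genes in all libraries. The dendritic cell list was at 15.02 to 23.2 CPM over 5 genes in control, 23.0 to 39.3 with D-2HG and 23.7 to 34.2 with L-2HG. In bulk RNA, fewer cells of a type and less RNA per cell cannot be told apart, and the part of other cells and of the satellite, mitochondrial and sensory receptor shares in the results below was not tested except where a value is given.

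In control cells the common gamma chain gene stood far above the other members. On the scale of CPM per kilobase of exon, which allows levels to be set between genes, Il2rg (chromosome X, 101264378 to 101268255, mm10) was at 477 ± 123.5 (SD, n = 3). Il21r, Il2rb and Il2ra followed at 101 ± 8.95, 83.5 ± 1.29 and 75.9 ± 6.42. The ranges of Il2rb and Il2ra overlapped, and those of Il21r and Il2rb did not. Il4ra at 18.3 ± 4.41, Il7r at 13.9 ± 3.20, Ifnar2 at 12.7 ± 1.34, Ifnar1 at 7.98 ± 3.83 and Il6st at 5.69 ± 1.42 formed a lower group in which every neighbour in the order overlapped the next. Il6ra was lowest at 1.93 ± 0.582. Its counts were 16 to 74 per library, and the 16 counts of L-2HG replicate 2 carry an exact Poisson 95% interval of 9.1 to 26.0 counts (counting error only). With D-2HG the level of Il7r per kilobase was 28.7 ± 2.49 and that of Il4ra 33.3 ± 2.89, with overlapping ranges. With L-2HG Il7r, at 45.8 ± 2.95, stood above Il4ra at 29.1 ± 1.58 without overlap. How reads over overlapping genes were counted is not given in the sources used here. Gm20489 shares 30.5% of the exon bases of Il2rg and Gm21970 shares 9.46% of those of Ifnar2, both on the same strand. Gm44876 and Gm42809 lie antisense over 9.51% of the exon bases of Il4ra and 2.80% of those of Il6ra. The levels of these 4 members are uncertain to that extent, and the 4 overlapping genes had at most 6 counts in any library.

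**Figure D1:**
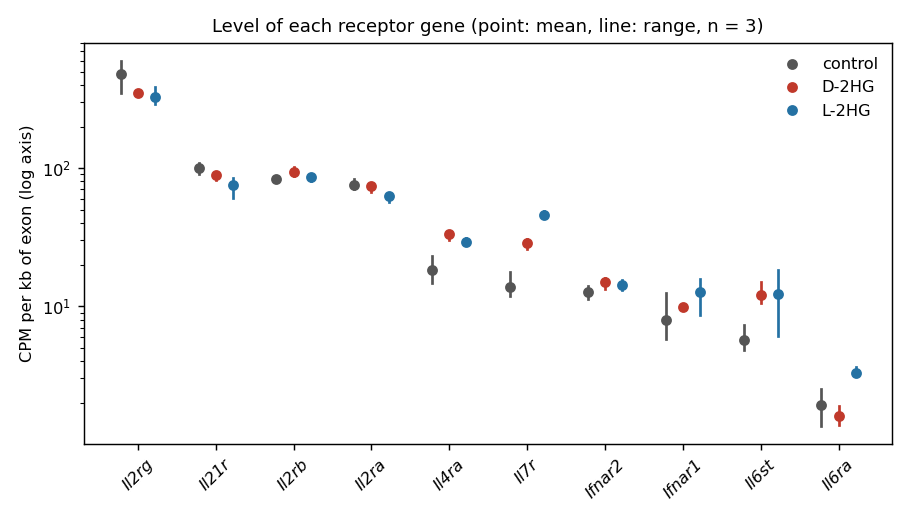
Level of the 10 receptor genes in CPM per kilobase of exon (log axis), ordered by the control mean. Points are group means and lines the range over 3 libraries of control, D-2HG and L-2HG. Il2rg is highest in each group and Il6ra lowest, and Il7r moves from 13.9 in control to 28.7 and 45.8 with the compounds.

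With D-2HG, Il7r, Il4ra and Il6st rose, 3 of 10 members against 22.3% of all genes tested, and the other 7 members did not pass the test. Il7r (ENSMUSG00000003882, chromosome 15, 9505788 to 9530176, minus strand, mm10) had 56.8, 81.9 and 55.4 CPM in control replicates 1, 2 and 3, and 121, 138 and 143 CPM in the D-2HG replicates. All D-2HG libraries lay above all controls, among which replicate 2 was highest. The fold change was 2.09, or 1.06 ± 0.20 on the log2 scale (SE; 95% interval 0.64 to 1.48; edgeR adjusted p = 0.00312). Il4ra (ENSMUSG00000030748, chromosome 7, 125552120 to 125579474, plus strand), whose product binds interleukin-4 and interleukin-13, had 88.8, 140 and 101 CPM in control and 209, 210.3 and 180 CPM with D-2HG. The groups did not overlap, and control replicate 2 was again the highest control. The fold change was 1.83 (log2 0.87 ± 0.20, SE; edgeR adjusted p = 0.00831). Il6st (ENSMUSG00000021756, chromosome 13, 112464070 to 112510086, plus strand) had 53.5, 81.4 and 54.7 CPM in control and 117, 116 and 167.5 CPM with D-2HG. Here too the groups did not overlap, and D-2HG replicate 3, the D-2HG library with the most satellite counts, was highest. The fold change was 2.13 (log2 1.09 ± 0.30, SE; edgeR adjusted p = 0.0210).

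In this comparison 11.8% of the 10235 genes passed as higher with D-2HG, so that a count of 3 of 10 members is not a result about the members as a group. Ranges that did not overlap were found for 4 of 10 members, Il7r, Il2rb, Il4ra and Il6st, all higher with D-2HG, against 40% of all genes. The median log2 fold change was 0.20 over the members and 0.04 over all genes. Control replicate 2 already differed from the mean of replicates 1 and 3 by 0.54, 0.55 and 0.58 on the log2 scale for Il7r, Il4ra and Il6st. Without control replicate 2, 5 members passed, with Il2rg lower (log2 fold change -0.64, edgeR adjusted p = 0.00924) and Ifnar1 higher (0.76, edgeR adjusted p = 0.0129) besides these 3. Without control replicate 3, Il7r alone passed, and Il4ra was at edgeR adjusted p = 0.0678 and Il6st at 0.0952. Il6st also did not pass without control replicate 1 (edgeR adjusted p = 0.0984) or D-2HG replicate 3 (0.0926). With the log2 satellite share as a covariate no member passed, with log2 fold changes of 0.81, 0.77 and 0.48 for Il7r, Il4ra and Il6st (edgeR adjusted p = 0.0786, 0.102 and 0.508).

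None of the interleukin-2 receptor genes passed the test with D-2HG. Il2ra (ENSMUSG00000026770, chromosome 2, 11642807 to 11693193, plus strand) had 475, 406 and 420 CPM in control and 448, 439 and 386 CPM with D-2HG. The groups overlapped, and the log2 difference of -0.03 had a 95% interval of -0.41 to 0.34 (edgeR adjusted p = 0.911). Its sign changed with the scaling, to 0.04 without TMM, so that no direction can be given. Il2rb (ENSMUSG00000068227, chromosome 15, 78479256 to 78495271) had 355, 354 and 364 CPM in control and 388, 434.5 and 377.5 CPM with D-2HG. The D-2HG libraries lay above the controls without overlap, but the difference of 0.16 (-0.21 to 0.53) did not pass the test (edgeR adjusted p = 0.513). Il2rg had 1425, 836 and 1155 CPM in control and 840.1, 850.3 and 826 CPM with D-2HG, a log2 difference of -0.44 (edgeR adjusted p = 0.127). The low control was replicate 2, at the level of the D-2HG libraries. Il21r, which encodes the receptor for interleukin-21 and lies 23954 bases from Il4ra on chromosome 7 with no protein-coding gene between, differed by -0.18 (-0.57 to 0.21). Il6ra differed by -0.23 (-0.81 to 0.35), Ifnar1 by 0.34 (-0.23 to 0.92) and Ifnar2 by 0.25 (-0.18 to 0.67), none past the threshold. Ifnar1 with D-2HG was at 56.9 to 61.6 CPM, within the control range of 34.2 to 73.7.

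**Figure D2:**
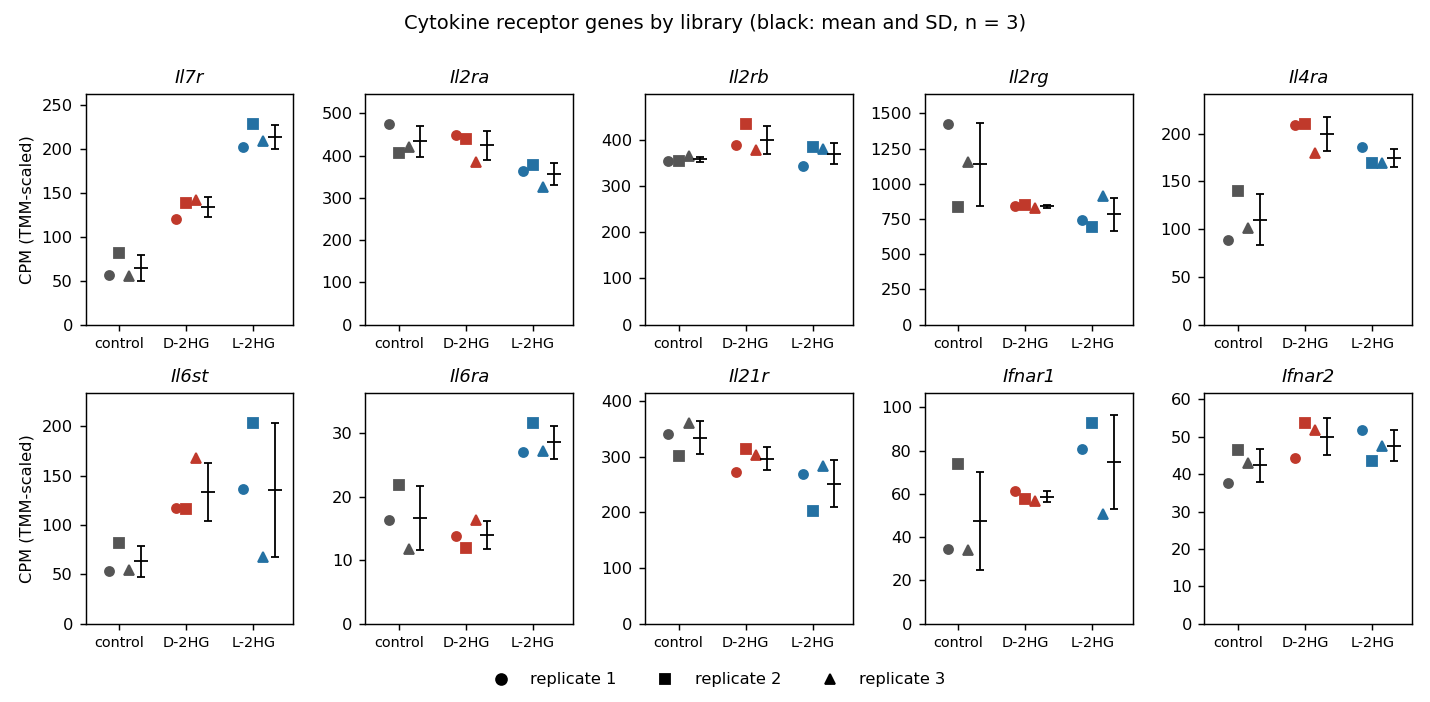
CPM of each receptor gene in every library, by group, with the group mean and SD (n = 3) in black and the replicate number as the symbol. For Il7r the controls lie at 55.4 to 81.9, the D-2HG libraries at 121 to 143 and the L-2HG libraries at 202.5 to 229, and control replicate 2 (square) is the highest control for Il7r, Il4ra, Il6st, Il6ra, Ifnar1 and Ifnar2.

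With L-2HG too, Il7r, Il4ra and Il6st rose, and the fold change of Il7r was the largest of the 10 members. Il7r was at 202.5, 209 and 229 CPM in L-2HG replicates 1, 3 and 2, so that the lowest L-2HG library lay above the highest control and above the highest D-2HG library. The fold change against control was 3.32, or 1.73 ± 0.21 on the log2 scale (SE; 95% interval 1.30 to 2.16; edgeR adjusted p = 0.000159). It passed under each of 21 alternatives, with edgeR adjusted p = 0.00904 when the satellite share was a covariate. Il4ra had 186, 170 and 169 CPM with L-2HG, all above the control range of 88.8 to 140, a fold change of 1.60 (log2 0.68 ± 0.20, SE; edgeR adjusted p = 0.0313). Il6st had 137, 203 and 67.1 CPM, and replicate 3 lay inside the control range of 53.5 to 81.4. The fold change of Il6st was 2.08 (log2 1.06 ± 0.31, SE; edgeR adjusted p = 0.0320).

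Beside these 3 of 10 members, 17.7% of all genes passed in this comparison and 9.41% passed as higher. Ranges did not overlap for 5 of 10 members, against 31.2% of all genes: Il7r, Il4ra and Il6ra lay above control and Il2ra and Il21r below. The median log2 fold change was 0.42 over the members and 0.05 over all genes. Il6ra had 27.0, 31.6 and 27.1 CPM with L-2HG and 16.3, 21.8 and 11.8 in control, and the difference of 0.79 (0.20 to 1.38) did not pass (edgeR adjusted p = 0.0556). A genomic background, taken from reads over sensory receptor genes that are silent in T cells, was put at up to 18.0% of the Il6ra counts, in L-2HG replicate 3. With that background subtracted Il6ra differed by 0.82 (edgeR adjusted p = 0.0869). It was at most 1.26% of the Il7r counts, 2.01% of the Il4ra counts and 9.35% of the Il6st counts. Il2ra had 363, 377 and 327 CPM with L-2HG, just below the lowest control at 406, and the difference of -0.29 (-0.67 to 0.09) did not pass (edgeR adjusted p = 0.249). Of 21 alternatives, Il2ra passed only by DESeq2, as lower (DESeq2 Wald adjusted p = 0.0482). Il21r had 269, 203 and 284 CPM against 341, 302 and 361 in control, a difference of -0.40 (-0.79 to 0.00; edgeR adjusted p = 0.133). Il2rg was at 744, 691 and 915 CPM, a difference of -0.54 (-0.98 to -0.10; edgeR adjusted p = 0.0756), and L-2HG replicate 3 lay above control replicate 2. Il2rb differed by 0.05 (-0.33 to 0.42), with a sign that turned to -0.08 under DESeq2 size factors, Ifnar1 by 0.65 (0.05 to 1.25) and Ifnar2 by 0.20 (-0.25 to 0.64), none past the threshold.

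The count with L-2HG rested on single libraries. Without control replicate 2, 7 members passed: Il7r, Il4ra, Il6st, Il6ra (log2 fold change 0.97) and Ifnar1 (1.05) as higher, and Il2rg (-0.75) and Il21r (-0.49) as lower (edgeR adjusted p of the last 4 = 0.0119, 0.00245, 0.00384 and 0.0352). Without control replicate 1, control replicate 3, L-2HG replicate 1 or L-2HG replicate 2, Il7r alone passed, with Il4ra at edgeR adjusted p = 0.133, 0.149, 0.121 and 0.0558 and Il6st at 0.123, 0.123, 0.0954 and 0.104. Il4ra also did not pass without D-2HG replicates 1 or 2 or L-2HG replicate 3 (edgeR adjusted p = 0.0560, 0.0524 and 0.0532). Il7r alone passed when both libraries with the highest satellite share, D-2HG replicate 3 and L-2HG replicate 2, were left out, when only control and L-2HG libraries entered the fit, and with the satellite share as a covariate. In the last case the log2 fold changes were 0.55 for Il4ra and 0.28 for Il6st (edgeR adjusted p = 0.591 and 0.859).

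**Figure D3:**
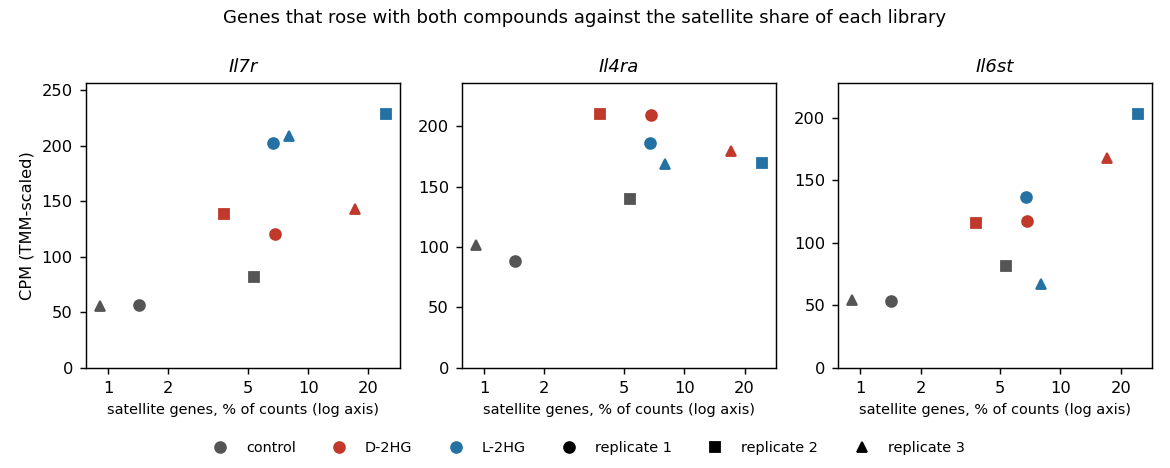
CPM of Il7r, Il4ra and Il6st (y axis) against the percent of each library's counts in Gm10800 and Gm10801 (x axis, log scale), coloured by group with the replicate number as the symbol. The controls lie at 0.910 to 5.35% on the x axis, the D-2HG libraries at 3.79 to 17.05% and the L-2HG libraries at 6.71 to 24.4%, so that share and group move together. The part of the share in these levels was not tested beyond the covariate fit.

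The mirror-image compounds were compared at the same dose and time. None of the 10 members passed, and 0.303% of all genes did, 31 of 10235, with 0.0489% higher and 0.254% lower in D-2HG libraries. At an unadjusted p under 0.05 the members that differed were Il7r and Il6ra. Il7r was lower with D-2HG, at -0.67 relative to L-2HG (log2; 95% interval -1.08 to -0.25; edgeR adjusted p = 0.285), and the libraries of both compounds did not overlap. Il6ra had 13.8, 11.9 and 16.2 CPM with D-2HG, below the 27.0 to 31.6 CPM with L-2HG, a log2 difference of -1.02 (-1.62 to -0.42; edgeR adjusted p = 0.222). Both passed by limma-voom with sample quality weights (adjusted p = 0.0146 and 0.0171) and neither by DESeq2. Ranges did not overlap for 3 of 10 members against 15.9% of all genes. Il2ra lay higher in D-2HG libraries, as 7.77% of genes did, and Il7r and Il6ra lay lower, as 8.13% did. Il2ra was higher with D-2HG by 0.26 (-0.12 to 0.64; edgeR adjusted p = 0.844). For Il4ra the difference was 0.19 (-0.23 to 0.61), for Il6st 0.03 (-0.61 to 0.67), for Il2rb 0.12 (-0.25 to 0.49) and for Il2rg 0.10 (-0.34 to 0.54). For Il21r it was 0.22 (-0.17 to 0.62), for Ifnar1 -0.31 (-0.90 to 0.28) and for Ifnar2 0.05 (-0.40 to 0.50). A difference that missed the threshold does not show that both forms acted alike, and the 95% intervals give the sizes that these libraries allow. In all, 3 pairs of groups were compared, with p-values adjusted over genes within each pair. The comparisons with control share the same 3 control libraries.

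**Figure D4:**
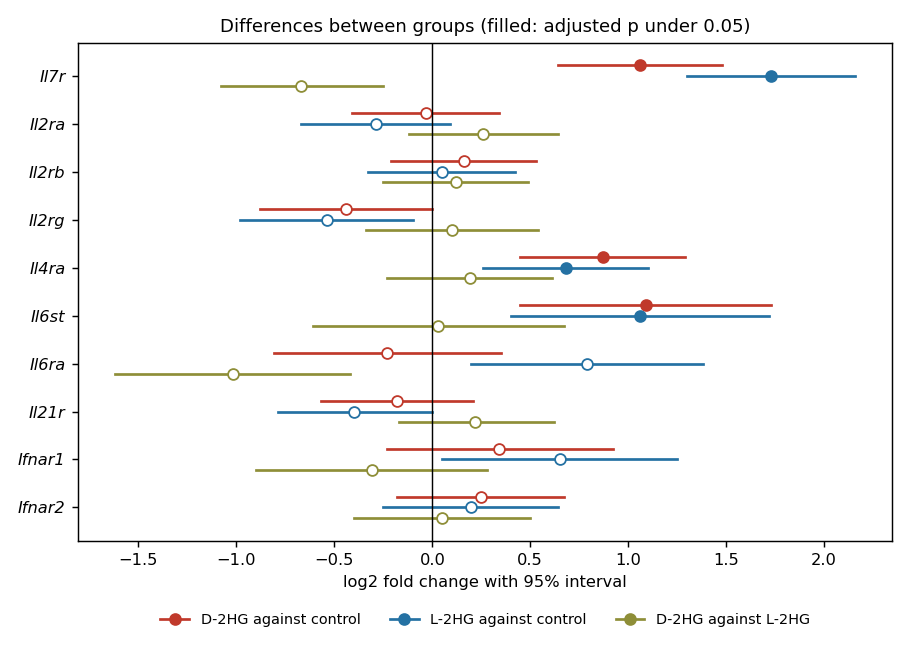
Log2 fold change of each receptor gene with its 95% interval for each compound against control and for the compounds against each other. Filled points passed at adjusted p under 0.05. Il7r, Il4ra and Il6st are filled for each compound against control, and no point is filled between the compounds.

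Ratios between receptor genes within a library do not depend on how libraries are scaled. Per kilobase of exon, control cells had 6.83, 4.05 and 6.19 times as much Il2ra as Il7r in replicates 1, 2 and 3. D-2HG libraries had ratios of 3.03, 2.59 and 2.21, and L-2HG libraries had 1.47, 1.34 and 1.27. No pair of groups overlapped and Il2ra stayed above Il7r in each library. The log2 ratio averaged 2.47 ± 0.40 in control libraries, 1.37 ± 0.23 in D-2HG libraries and 0.44 ± 0.10 in L-2HG libraries (SD, n = 3; exact permutation, two-sided, p = 0.1 for each pair, the smallest that 3 against 3 libraries allow). Il7r relative to the gamma chain gene Il2rg, its partner in the receptor, had log2 ratios of -5.61, -4.32 and -5.35 in control libraries, -3.76, -3.59 and -3.50 in D-2HG libraries and -2.84, -2.56 and -3.09 in L-2HG libraries. These groups did not overlap either (exact permutation p = 0.1 for each pair). Il6ra relative to Il6st had a mean log2 ratio of -1.58 ± 0.25 in control and -2.89 ± 0.14 with D-2HG, with no overlap (exact permutation p = 0.1), and of -1.75 ± 0.72 with L-2HG, where replicate 3 was highest at -0.95 (exact permutation p = 0.7 against control). Il2ra relative to Il2rb was at -0.14 ± 0.13 in control libraries, -0.33 ± 0.11 in D-2HG libraries and -0.47 ± 0.15 in L-2HG libraries (exact permutation p = 0.3 and 0.1 against control). In the same order Ifnar1 relative to Ifnar2 was at -0.77 ± 0.52, -0.60 ± 0.20 and -0.23 ± 0.50, with groups that overlapped. Over the 15 tests of 5 ratios the smallest adjusted p was 0.167.

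**Figure D5:**
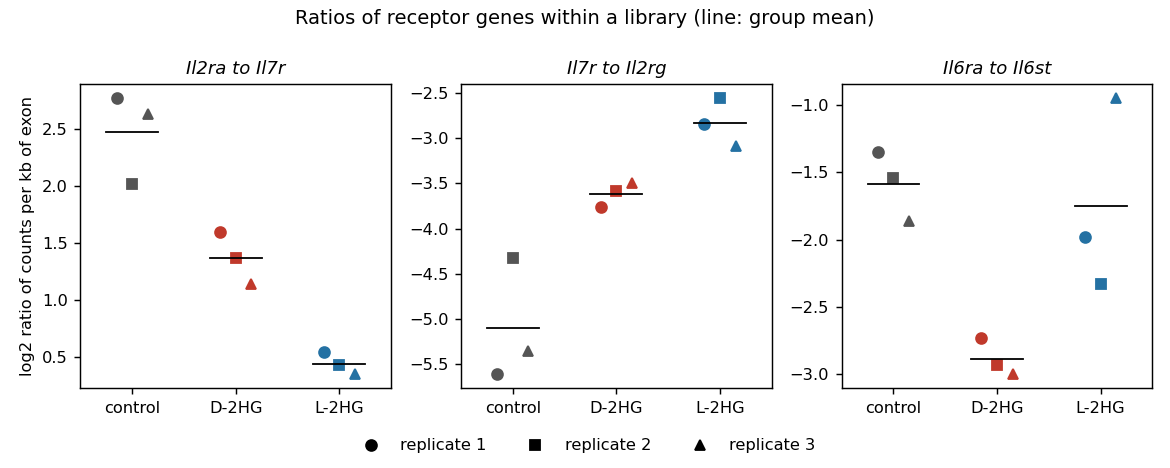
Log2 ratio of counts per kilobase of exon for 3 pairs of receptor genes in every library (symbols give the replicate number, lines the group mean). The ratio of Il2ra to Il7r falls from 2.02 to 2.77 in control to 0.35 to 0.55 with L-2HG, with D-2HG between, and the ratio of Il7r to Il2rg runs the other way.

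Kinase and STAT genes that act below these receptors were mostly higher with D-2HG. Of 11 measured, Jak1, Stat3, Stat5a, Stat5b, Tyk2 and Stat6 rose, with a median log2 fold change of 0.65 against 0.04 over all genes, of which 11.8% passed as higher. Jak1, the kinase bound to the beta chain, the interleukin-7 and interleukin-4 receptor alpha chains and gp130, rose from 193 ± 82.6 to 506 ± 46.2 CPM (SD, n = 3; edgeR adjusted p = 0.00430). Stat5a, a main target of interleukin-2 and interleukin-7 signals, rose from 122 ± 40.4 to 224 ± 17.3 CPM (edgeR adjusted p = 0.0114). Stat3, which interleukin-6 and interleukin-21 activate, rose from 120 ± 39.3 to 224 ± 16.0 CPM (edgeR adjusted p = 0.0100). With L-2HG, 4 of 11 rose, Jak1, Stat5b, Stat5a and Tyk2, and none fell, beside 9.41% of all genes that passed as higher. Jak1 reached 465 ± 156 and Stat5b 59.7 ± 16.9 CPM from 30.4 ± 5.25 (edgeR adjusted p = 0.0120 and 0.0191). In control replicate 2 the 11 genes already stood above replicates 1 and 3 by a median of 0.66. With the satellite share as a covariate Jak1 and Stat5a did not pass in either comparison (edgeR adjusted p from 0.0644 to 0.798). Stat3 and Stat5a also did not pass with D-2HG without control replicate 1 (edgeR adjusted p = 0.0602 and 0.0658) or control replicate 3 (0.0768 and 0.0797), nor Stat5a without D-2HG replicate 3 (0.0536). The rises of Stat5b, Tyk2 and Stat6 with D-2HG were not recomputed under alternatives. The part of the satellite share in the rise of the kinase and STAT genes was not tested beyond the covariate fit.

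Feedback inhibitors and STAT5 targets moved both ways with D-2HG, 3 of 18 up and 4 down, with a median of -0.27. Those up were Socs5, Pim1 and Bcl2, and those down were Pim2, Cish, Ptpn2 and Ccnd2. Pim1, Bcl2 and Ccnd2 (edgeR adjusted p = 0.0242, 0.0436 and 0.0414) were not recomputed under alternatives. Over all genes 11.8% passed as higher and 10.5% as lower. Cish, an inhibitor induced by STAT5, fell from 137.5 ± 22.8 CPM in control to 82.4 ± 1.44 (edgeR adjusted p = 0.0142). The kinase gene Pim2 fell from 98.1 ± 19.2 to 42.6 ± 8.16 CPM with D-2HG and to 51.7 ± 14.3 with L-2HG (edgeR adjusted p = 0.00325 and 0.0231). Ptpn2, a phosphatase that acts on JAKs and STATs, fell from 240 ± 49.2 to 151 ± 14.4 and 148 ± 12.2 CPM (edgeR adjusted p = 0.0235 and 0.0276), and Socs5 rose with D-2HG from 7.59 ± 2.40 to 16.8 ± 4.53 CPM (edgeR adjusted p = 0.0231). With L-2HG 2 of 18 fell, Pim2 and Ptpn2, and none rose, beside 8.3% of all genes that passed as lower. Cish and Ptpn2 did not pass with D-2HG without control replicate 1, control replicate 3 or any 1 of the D-2HG replicates (edgeR adjusted p from 0.0521 to 0.0739 and from 0.0560 to 0.124). Socs5 did not pass without control replicate 1 or D-2HG replicates 1 or 3 (edgeR adjusted p = 0.113, 0.128 and 0.0537).

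Of 27 other cytokine receptor genes 12 had enough counts to test. Il15ra, the chain that presents interleukin-15 to the products of Il2rb and Il2rg, fell from 72.9 ± 8.37 CPM to 34.1 ± 7.11 with D-2HG and 39.6 ± 8.80 with L-2HG (edgeR adjusted p = 0.00494 and 0.0254). Il12rb1, a chain of the interleukin-12 receptor, fell from 35.0 ± 3.73 to 10.6 ± 2.28 and 16.8 ± 6.15 CPM (edgeR adjusted p = 0.000794 and 0.0319). These were the 2 of 12 that passed with D-2HG, against 22.3% of all genes, so that the count is not a result about these receptors as a group. With L-2HG, Il10rb, which lies between Ifnar2 and Ifnar1 on chromosome 16, fell too (edgeR adjusted p = 0.0478, not recomputed under alternatives). Il18r1 and Tgfbr2 rose, Il18r1 from 3.56 ± 0.935 to 11.03 ± 1.04 CPM (edgeR adjusted p = 0.0182). In that comparison 17.7% of all genes passed. The 12 genes had medians of 0.19 and 0.48. Among ligands, only Il2 and Lif of 12 had enough counts to test, and neither passed (log2 difference of Il2 -0.56 with D-2HG and -0.31 with L-2HG). Il7 had 24 counts, Il15 had 5 and Il4 had 3 over all 9 libraries, and Ifnb1 and Ifna4 had none.

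Of 19 transcription factor genes that act at Il7r or Il2ra, 18 had enough counts to test, with medians of 0.02 and 0.10. With D-2HG Fos fell from 48.3 ± 3.92 to 20.3 ± 6.99 CPM (edgeR adjusted p = 0.00483) and none rose, beside 22.3% of all genes that passed in either direction. With L-2HG the NF-kB subunit gene Rel rose from 340 ± 137 to 619 ± 75.3 CPM and Tcf7, a factor of naive and memory T cells, from 211 ± 29.8 to 319.5 ± 55.4 CPM, while Jun fell from 10.0 ± 1.36 to 2.78 ± 2.74 (edgeR adjusted p = 0.0216, 0.0432 and 0.0370). These were 3 of 18, against 17.7% of all genes. Jun had 0 counts in 1 of the L-2HG libraries.

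The calls of list genes depended on the satellite covariate, on the background, on single libraries and on which groups were fitted. With L-2HG, Jak1, Stat5a, Stat5b, Tyk2, Pim2, Ptpn2, Il18r1, Tgfbr2, Il15ra, Il12rb1, Rel, Tcf7 and Jun all missed the threshold without control replicate 1 (edgeR adjusted p from 0.0656 to 0.200) and without control replicate 3 (0.0785 to 0.215). With the satellite share as a covariate all of them missed it as well (edgeR adjusted p from 0.591 to 0.901). With only control and L-2HG libraries fitted, all but Jak1 and Il18r1 missed it (0.0545 to 0.114). With the sensory receptor background subtracted, Il18r1, Tgfbr2, Il15ra, Il12rb1, Tyk2 and Pim2 missed it (edgeR adjusted p from 0.053 to 0.0771), as did Ptpn2 and Jun. Over all genes 177 passed without control replicate 1 and 65 without control replicate 3. Without L-2HG replicate 1 those that missed were Stat5a, Stat5b, Tyk2, Pim2, Ptpn2, Il18r1, Tgfbr2, Il15ra, Il12rb1, Rel and Tcf7. Without L-2HG replicate 2 they were Stat5a, Stat5b, Tyk2, Pim2, Ptpn2, Tgfbr2, Il15ra, Il12rb1, Tcf7 and Jun, and without L-2HG replicate 3 Tcf7 and Jun. Without a D-2HG library, which only adds to the estimate of spread here, Tyk2 and Tcf7 missed for each, and Stat5a and Tgfbr2 without D-2HG replicates 1 or 2. With D-2HG, Jak1, Pim2, Il15ra, Il12rb1 and Fos passed without any 1 library. With the satellite share as a covariate Il12rb1 passed with D-2HG (edgeR adjusted p = 0.0116), and Pim2 (0.0744), Fos (0.132), Il15ra (0.196), Stat3 (0.156), Socs5 (0.110), Cish (0.249) and Ptpn2 (0.468) did not.

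The genes whose log2 CPM followed Il7r most closely over the 9 libraries, among 8483 ranked, were Tcf20 (Pearson r = 0.994), Cabin1 (0.979), Med12 (0.979), Mctp2 (0.978) and Srgap2 (0.978). Within groups, where differences between the group means are taken out, the r with Il7r was 0.97 for Tcf20 and 0.55 for Mctp2. Tcf20 had a mean of 120 CPM in control libraries, 169 in D-2HG libraries and 202.5 in L-2HG libraries, and Mctp2 went from 6.94 to 17.0 and 29.7 CPM. The 5 most like Il2ra were Gtpbp1 (r = 0.941), Cisd2 (0.900), Tmem33 (0.885), Eif1a (0.882) and Ahsa2 (0.881), with r within groups from 0.64 to 0.92. Points of one library share its depth and scaling, and these values are a description of the 9 libraries.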

How the data were processed

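Gene counts of 9 libraries of mouse CD8 T cells (3 each of control, 20 mM D-2HG and 20 mM L-2HG) were used as deposited. Per the labels, polyadenylated RNA was copied with an oligo(dT) primer, amplified by PCR and cut with Tn5. The submitters' processing notes name STAR 2.7.3a, featureCounts and mm10, and the annotation release, strand setting and treatment of multiply aligned reads are not given in the sources used here. A second deposited table of normalized values was not used.

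Genes were kept with edgeR's filterByExpr (minimum count 10), scaled by TMM and tested with edgeR 4.0.16 quasi-likelihood (R 4.3.3) in 1 fit of the 3 groups, with Benjamini-Hochberg adjustment over 10235 genes and a threshold of 0.05. The same steps were tested on simulated data. Ratios were compared by two-sided exact permutation. Alternatives used limma 3.58.1, DESeq2 1.42.0, other scalings and filters, each library left out, the satellite share as a covariate and, chosen after seeing the data, subtraction of a background from 1874 sensory receptor genes and leaving out both libraries with the highest satellite share. Exon lengths came from GENCODE M21 and promoters from RefSeq. Of 11256 genes with no count none was tested. Libraries held 562627 to 5731885 counts, intervals on single counts cover counting error only, and reads amplified by PCR without molecular identifiers are not independent molecules.

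The members and gene lists were chosen with earlier results of these data known. Named were all 10 members, up to 4 genes a list and comparison with the smallest adjusted p past the threshold, and the 5 genes most like Il7r and Il2ra with a mean of at least 5 CPM. Other genes that make up a count, such as Stat6 and Il10rb, were named after their values were seen. Some genes of the lists are not reported here.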

Additional observations from a re-analysis of the deposited data

How the results depend on the processing

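The differences of the members, and of the list genes with the smallest adjusted p, were recomputed under 21 alternatives per comparison. For Socs5, Il18r1 and Jun there were 20. Calls of other single genes were not recomputed. The count of 3 members with D-2HG was 0 with the satellite share as a covariate, 5 by limma-voom and 1 to 5 when 1 library was left out. The count of 3 with L-2HG was 1 with the satellite covariate, 1 without both libraries of highest satellite share, 1 with only control and L-2HG libraries fitted, 6 by DESeq2, 7 by limma-voom and 1 to 7 when 1 library was left out. The members that DESeq2 added with L-2HG were Il2ra, Il2rg and Il21r, all as lower. The count of 0 between D-2HG and L-2HG was 2 by limma-voom and 0 without any 1 library. With no count filter Il4ra did not pass with D-2HG (adjusted p = 0.0876), leaving 2 members. With L-2HG Il4ra did not pass with DESeq2 size factors (0.0584) or with no filter (0.392), nor Il6st with no filter (0.0632), while Il2rg passed as lower in both (0.0497 and 0.0423). The causes were not tested.

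Directions turned only for differences that did not pass in the fit reported. With D-2HG, Il2ra went from -0.03 to 0.04 without TMM, at a mean count of at least 50 and with background subtracted, to 0.03 with the satellite covariate and without both satellite-rich libraries, to 0.02 by limma-voom, and to -0.09 to 0.03 when 1 library was left out. Il6ra was 0.07 by limma-voom, and with the satellite covariate Il21r was 0.03 and Ifnar1 -0.11. With L-2HG, Il2rb was -0.08 with DESeq2 size factors and by DESeq2, -0.23 with no count filter, -0.01 by limma-voom and -0.03 to 0.07 when 1 library was left out, and Ifnar2 was -0.06 with no filter. Between D-2HG and L-2HG, Il6st was -0.02 at a mean count of at least 50 and -0.27 to 0.39 when 1 library was left out, and Ifnar2 was -0.01 without both satellite-rich libraries and -0.03 by limma-voom.

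Scaling moved the balance of all calls. Genes higher with D-2HG made up 52.9% of calls with TMM, 43.8% with DESeq2 size factors, 70.0% without TMM and 39.6% with no filter, and with L-2HG 53.1, 36.2, 77.7 and 31.0%. The median gene differed by 0.15 without TMM and -0.21 with no filter in the latter comparison. With the satellite covariate 96 genes passed with D-2HG and 8 with L-2HG. With the replicate number as a block the member counts were 3, 4 and 0, with Ifnar1 added for L-2HG (0.71, edgeR adjusted p = 0.0465), and 2314, 2284 and 35 genes passed against 2278, 1812 and 31. It is not given in the sources used here if libraries of the same number share a source. Of 9 libraries, 0 correlated best with their own number in both other groups. A best match in only 1 group does not enter that count, so it cannot decide the question. With group means taken out, same-number libraries of replicates 1, 2 and 3 had r of 0.097, 0.283 and 0.123 between control and L-2HG. Between control and D-2HG r was 0.034, -0.172 and -0.116, and between D-2HG and L-2HG 0.008, -0.132 and -0.153. Precision was limited by depth for Il6ra, with 16 counts in L-2HG replicate 2.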
